A study of Homo sapiens with 8 samples.

Results

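Enterocytes are the absorptive cells that line the intestine, and 10 of their transcription factors and marker genes were followed here across a colorectal and a pancreatic cancer line: CDX1, CDX2, KLF4, HNF4A, VIL1, LGALS4, FABP1, CDH17, GPA33 and DPP4. The members were named by symbol, and every probe set whose only annotated gene symbol was one of them was taken, which gave 12 probe sets for 9 of the 10 genes, out of 11963 genes with a value. HNF4A was not analysed here. Transcript levels came from 8 Affymetrix human arrays in 7 groups. Both lines are established human ones, HT29 from colorectal and Colo357 from pancreatic cancer, and each was measured untreated and after 72 h with SWA11, a monoclonal antibody against the surface protein CD24, at a dilution of 1 to 40. The other 4 arrays came from clones derived from HT29: a control clone whose vector expresses an shRNA against GFP, a clone with 1 vector expressing an shRNA against CD24, and 2 clones that each carry 2 such vectors, called first and second here. Each array other than those of the 2-vector clones was the only one of its group, each clone is a single clone, and no array of an unrelated antibody was used here. The labels do not say that any samples were separate cultures, so the p-values below measure only the spread between these samples.

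Enterocyte identity rests on homeobox and nuclear receptor transcription factors. CDX1 and CDX2 are the homeobox factors of the intestine, CDX2 being needed for intestinal identity; HNF4A is a nuclear receptor that acts with them, and KLF4 is a zinc-finger factor found in the differentiated, non-dividing cells near the gut surface. Their targets build the brush border, a carpet of microvilli whose actin cores are bundled by villin (VIL1) and whose membrane carries peptidases such as DPP4. Galectin-4 (LGALS4) is a lectin that takes part in sorting proteins to that apical membrane, CDH17 and GPA33 are adhesion-type surface proteins of intestinal epithelium, and FABP1 carries fatty acids inside the cell.

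RefSeq promoters on GRCh38.p14, running from 250 bases before to 50 bases after the annotated gene start, were matched for 6 of the members: CDX2, KLF4, LGALS4, FABP1, GPA33 and DPP4. Those of LGALS4 (chr19:38812896-38813195), KLF4 (chr9:107489720-107490019) and DPP4 (chr2:162074166-162074465), all on the minus strand, are shown because the brightest probe sets of these 3 genes separated every HT29 clone from parental HT29 by 2-fold or more. Each runs 5′ to 3′ along the gene's strand, and capitals mark every match, on either strand, to a motif that was searched.
LGALS4: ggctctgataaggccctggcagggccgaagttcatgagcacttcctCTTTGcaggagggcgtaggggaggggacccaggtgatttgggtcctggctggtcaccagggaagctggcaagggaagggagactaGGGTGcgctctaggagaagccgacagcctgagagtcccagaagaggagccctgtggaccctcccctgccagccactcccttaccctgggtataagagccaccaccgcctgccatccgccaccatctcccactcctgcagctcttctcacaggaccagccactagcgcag
KLF4: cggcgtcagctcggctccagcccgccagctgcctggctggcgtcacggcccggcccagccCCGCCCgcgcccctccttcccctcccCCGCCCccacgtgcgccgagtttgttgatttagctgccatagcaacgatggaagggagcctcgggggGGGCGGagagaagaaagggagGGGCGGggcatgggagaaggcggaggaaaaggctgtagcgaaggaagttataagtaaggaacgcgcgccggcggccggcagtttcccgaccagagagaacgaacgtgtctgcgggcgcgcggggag
DPP4: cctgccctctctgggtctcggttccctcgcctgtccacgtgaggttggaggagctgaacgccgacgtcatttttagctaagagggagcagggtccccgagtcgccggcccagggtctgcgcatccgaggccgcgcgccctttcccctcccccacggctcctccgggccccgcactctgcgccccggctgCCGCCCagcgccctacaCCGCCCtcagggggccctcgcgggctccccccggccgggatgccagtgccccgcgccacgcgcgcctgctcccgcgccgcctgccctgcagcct

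The motifs were TTTAT, a CDX site, CAAAGTCCA, a full HNF4A site, and its core CAAAG, which every full site also contains. GGGCGG, the GC box, and CACCC, a site of the KLF family, were searched as well. KLF4 held 4 GC boxes and DPP4 held 2, and neither held any other motif searched. LGALS4 held 1 HNF4A core and 1 KLF site and no GC box. Of the 3 promoters not shown, FABP1 held 3 CDX sites, 1 HNF4A core and 1 KLF site. CDX2 held 2 CDX sites and 1 HNF4A core, and GPA33 held 3 HNF4A cores and 1 KLF site. The G and C content was 69.0% in KLF4, 75.0% in DPP4 and 62.7% in LGALS4, against 50.3% in CDX2 and 56.3% in GPA33. Among all 35116 RefSeq promoters of this length, 34.9% held the CDX site, 47.5% the HNF4A core, 45.0% the GC box and 59.9% the KLF site. The full HNF4A site was in 0.384% of them and in none of the 6 members' promoters. A match to such short letters describes the sequence and does not mark a bound site.

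Few of the 9 genes gave a signal above the middle of the arrays. The intensities are those of Affymetrix's MAS5 algorithm, scaled by the authors to one trimmed mean per array, and different probe sets are not comparable in level. LGALS4 and KLF4 lay above the median intensity of the array on 7 of 8 arrays, VIL1 on 6 and DPP4 on 5. CDH17 lay above it on 1 array, that of untreated Colo357, and CDX1, CDX2, FABP1 and GPA33 on none. Per array, 2 to 4 of the 9 genes lay above the median, and none of them did so on every array. The median itself was lowest for the first 2-vector clone, at 32.4, and highest for the GFP clone, at 63.1.

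**Figure D1:**
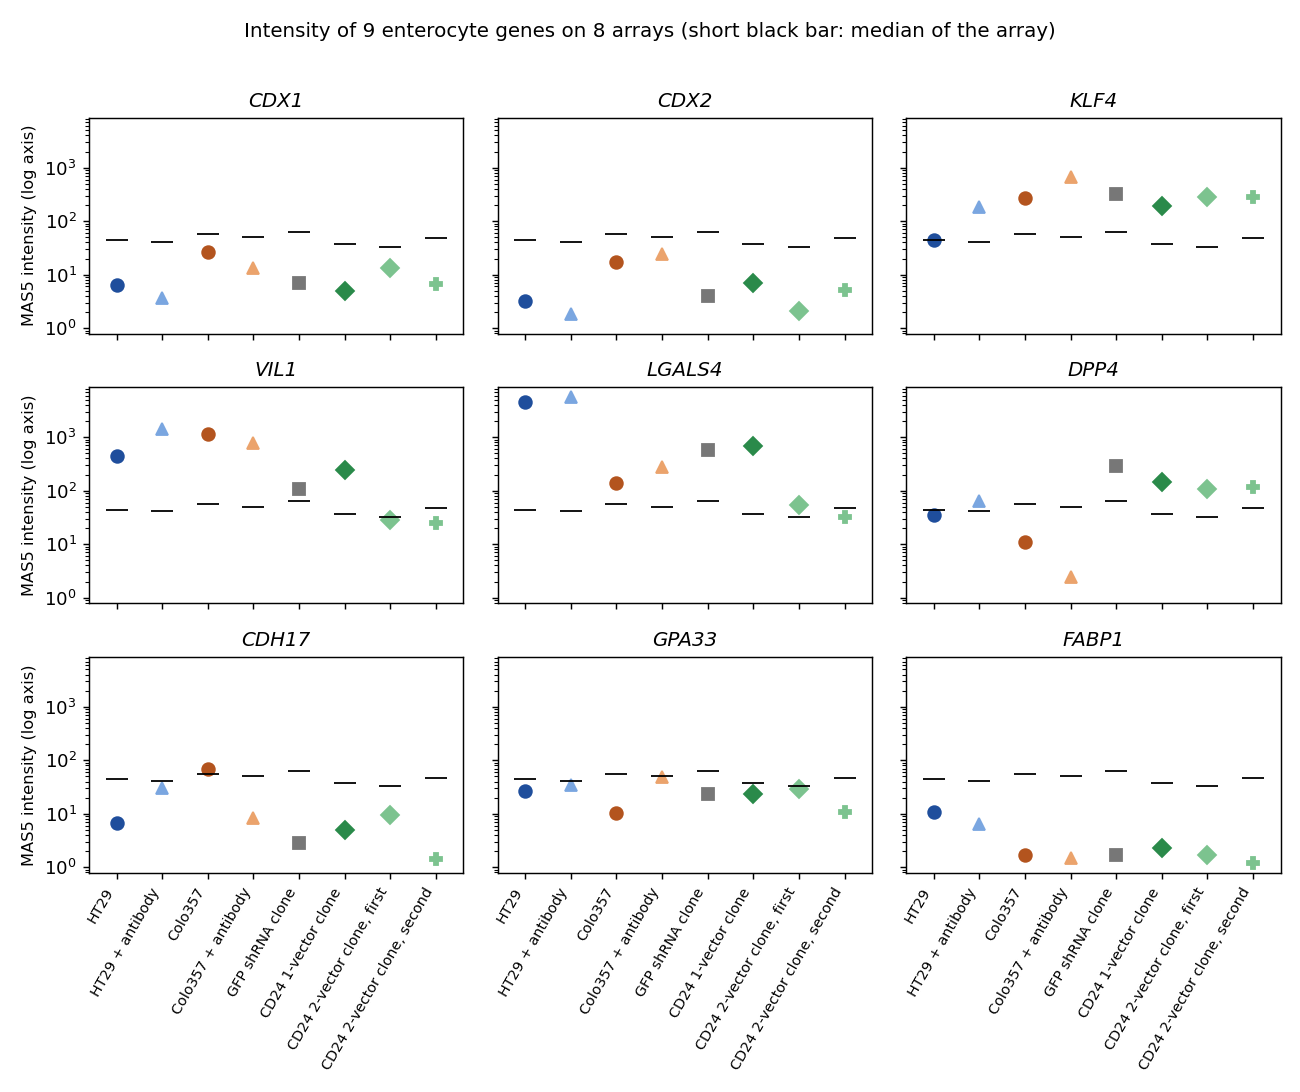
Intensity on a log axis of the main probe set of each of the 9 genes on the 8 arrays, 1 point per array, with a short black bar at that array's median. LGALS4 spans 5625.5 on the HT29 antibody array to 32.5 in the second 2-vector clone, while CDX1, CDX2, FABP1 and GPA33 stay under the median bar on all 8 arrays.

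The HT29 label was checked against 7 markers of colon epithelium, of which 6 had a value. On the 6 HT29-derived arrays only LGALS4 and the colonic keratin KRT20 lay above the array median, and in the second 2-vector clone only KRT20; CDX1, CDX2, GPA33 and CDH17 were below it on all 6. The summed intensity of the list, most of it from LGALS4 and KRT20, was 3383.2 to 9710.8 on these arrays and 269.6 and 383.4 in Colo357. CDX1 and CDX2 read higher in Colo357 than in HT29, both untreated and with antibody. CDH17 overlapped, at 68.8 untreated and 8.4 with antibody in Colo357 and 6.6 and 30.4 in HT29. At least 4 of 5 general epithelial markers were above the median on every array, CDH1 (E-cadherin) being below it in the 4 clones. None of the 5 measured pancreatic acinar markers was above it on any array. The targeted gene, CD24, read 558, 171.7 and 595.5 for the 1-vector, first and second 2-vector clones, against 6425.1 for parental HT29 and 7362.5 for the GFP clone (limma adjusted p = 0.212 over all genes).

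Among the transcription factors, the homeobox pair gave dim signals throughout. CDX1 read 6.5 in HT29 and 3.7 with antibody, 27 in Colo357 and 13.5 with antibody, 6.9 with the GFP shRNA, 5 with 1 CD24 vector, and 13.1 and 6.8 with 2 vectors. CDX2 read 3.2 and 1.8 in HT29 without and with antibody, 17.1 and 24.3 in Colo357, 3.9 with the GFP shRNA, 7 with 1 CD24 vector, and 2.1 and 5.1 with 2 vectors. The pancreatic line gave the highest readings of both genes, but for CDX1 its antibody array, at 13.5, barely exceeded the first 2-vector clone, at 13.1. The share of all genes that part the lines in this way is not given here, so this only describes dim readings. Differences this far below the array median were left out of the tests, and the deposited table carries no detection calls, so neither gene is described as absent. On the log2(intensity + 10) scale, Colo357 minus HT29 over both treatments was 0.97 for CDX1 and 1.29 for CDX2.

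KLF4 was the only one of CDX1, CDX2 and KLF4 with a clear signal. Parental HT29, just under its array median of 44, had the least KLF4. Its brighter probe set read 43.9 in untreated HT29, 187.6 in HT29 with antibody, 264.9 in Colo357 and 669.6 in Colo357 with antibody. The same probe set read 317.3 in the GFP clone, 188.8 in the 1-vector clone, 285.2 in the first 2-vector clone and 278.9 in the second. Untreated HT29 lay below all 7 other arrays, and antibody-treated Colo357 above all of them. The order between these extremes was HT29 with antibody, the 1-vector clone, Colo357, the second and first 2-vector clones and the GFP clone. A single array stands for each of these except the pair of 2-vector clones, so no spread can be given for neighbours in that order. The second KLF4 probe set was dimmer, at 8.3 in untreated HT29 and 114.9 in antibody-treated Colo357, and had the same lowest and highest array.

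The structural gene VIL1 and the lectin gene LGALS4 were both dimmest in the 2-vector clones. VIL1 read 439.3 in HT29, 1408.3 in HT29 with antibody, 1123.5 in Colo357 and 780 in Colo357 with antibody. In the clones it read 105.5 with the GFP shRNA, 248.5 with 1 CD24 vector, and 27.9 and 25 with 2 vectors. All 4 clones lay below the 4 arrays of the uncloned lines, and the 2-vector clones were below their own array medians of 32.4 and 47.5. The share of all genes that part clones from uncloned lines is not given here, so nothing is read from that separation. LGALS4 read 4581.5 in HT29 and 5625.5 with antibody, and 139.6 and 274.9 in Colo357 without and with antibody. In the clones it read 584.5 with the GFP shRNA, 682.2 with 1 vector, and 53.6 and 32.5 with 2 vectors. The GFP and 1-vector clones thus lay between HT29 and Colo357, and the 2-vector clones below Colo357.

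Among the surface proteins and enzymes, DPP4 alone had a signal in most samples, and it was brightest in the clones. Its brightest probe set read 34.9 in HT29, 64.4 in HT29 with antibody, 10.8 in Colo357 and 2.4 in Colo357 with antibody. It read 284.4 with the GFP shRNA, 142.7 with 1 CD24 vector, and 108.1 and 118.7 with 2 vectors. On this probe set all 4 clones lay above the 4 arrays of the uncloned lines, and Colo357 lay below HT29. One of the dimmer probe sets did not part them, at 7.7 in the first 2-vector clone and 14 in antibody-treated HT29. How many of all genes part clones from uncloned lines is not given here, so this only describes the readings. The probe sets did not agree in the first 2-vector clone: one of the dimmer probe sets read 7.7 there against 126.9 to 231.8 in the other 3 clones, and the remaining one read 55.1 against 103.4 to 174.9.

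**Figure D2:**
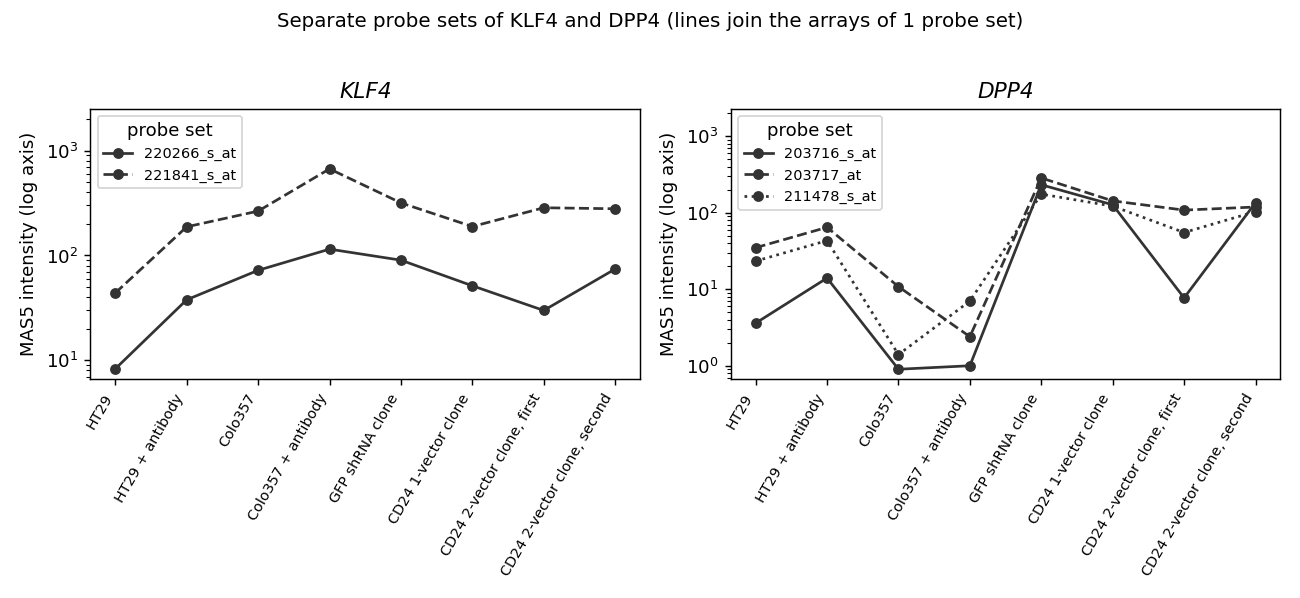
Intensity on a log axis of the 2 probe sets of KLF4 and the 3 of DPP4 on the 8 arrays; lines join the readings of 1 probe set and carry no order. Both KLF4 probe sets are lowest in untreated HT29, and the DPP4 probe sets part in the first 2-vector clone, where they read 108.1, 55.1 and 7.7.

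CDH17, GPA33 and FABP1 stayed near or under the array median. CDH17, the liver-intestine cadherin, read 68.8 in untreated Colo357 and 30.4 in antibody-treated HT29 and at most 9.4 on the other 6 arrays. GPA33, the A33 antigen, ranged from 10.4 in untreated Colo357 to 48.6 in antibody-treated Colo357 with a median of 25.05 over the 8 arrays. FABP1 read 11 in HT29 and 6.3 with antibody and 1.2 to 2.3 on the other arrays. None of these readings entered a test, apart from fits without the filter on dim genes.

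Whether antibody against CD24 moved these genes in HT29 was asked of 1 treated and 1 untreated array, so the differences have no error and no test. All values are differences on the log2(intensity + 10) scale, which understates the change of dim genes, and tests used genes whose mean intensity over the arrays compared was above the median of those arrays. KLF4 was higher with antibody by 1.87 and VIL1 by 1.66, which is 3.67-fold and 3.16-fold. DPP4 was higher by 0.73 and LGALS4 by 0.30. These 4 were the members above the filter of 43.5, DPP4 only through its treated array, and 2 of the 4 were 2-fold or more higher; of all 6692 genes tested, 5.27% were 2-fold or more higher and 7.58% lower. Their median difference was 1.19, against -0.05 for all genes tested. DPP4 enters that median and had to be higher, so nothing is read from it. Below the filter, CDH17 differed by 1.28, GPA33 by 0.27, CDX2 by -0.16, CDX1 by -0.27 and FABP1 by -0.37.

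In Colo357 the direction differed between members. KLF4 was higher with antibody by 1.31 and LGALS4 by 0.93, while VIL1 differed by -0.52. Of these 3 members above the filter of 56.45, 1 (KLF4) was 2-fold or more higher and none lower, against 10.9% and 13.1% of the 6836 genes tested. The dimmer KLF4 probe set gave 0.60 in this line, and the mean of both 0.95, which ends that call. The 3 had a median of 0.93 and all genes tested one of -0.04. Below the filter, GPA33 differed by 1.52, CDX2 by 0.34, FABP1 by -0.02, CDX1 by -0.65, DPP4 by -0.75 and CDH17 by -2.10. The 3 DPP4 probe sets gave -0.75, 0.58 and 0.01, all from dim readings.

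Fitted over both lines with line as a term, no member passed the threshold of 0.05 in limma. KLF4 was higher in both lines, by 1.59 ± 0.33 (SE, 2 treated and 2 untreated arrays), with an adjusted p of 0.0676 by limma. LGALS4 was higher in both lines by 0.61 ± 0.34 (limma adjusted p = 0.322), and VIL1 gave 0.57 ± 0.50 (limma adjusted p = 0.533) from opposite directions. Thus 0 of the 3 members above the filter were called, beside 0.425% of 6819 genes (29 genes), 12 higher and 17 lower. The unadjusted p of KLF4 was 0.0013, the smallest of the 3. The fit had 1 residual degree of freedom, and the KLF4 call depended on the settings: its adjusted p was 0.0466 with a pseudocount of 50 and 0.0373 when genes were filtered on their mean log2 value.

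The difference between the lines in the antibody's effect was tested directly. VIL1's difference was 2.18 ± 1.22 larger in HT29, DPP4's 1.47, and KLF4's 0.57, while LGALS4's was -0.63; the limma adjusted p was 0.999926 for each. No gene of 6826 was called by this limma fit (0%), and 73 had an unadjusted p under 0.05. DPP4 passed the filter of 56.4 over all 8 arrays through the clones. The fit took its spread from the pair of 2-vector clones alone and gave every gene the same standard error.

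**Figure D3:**
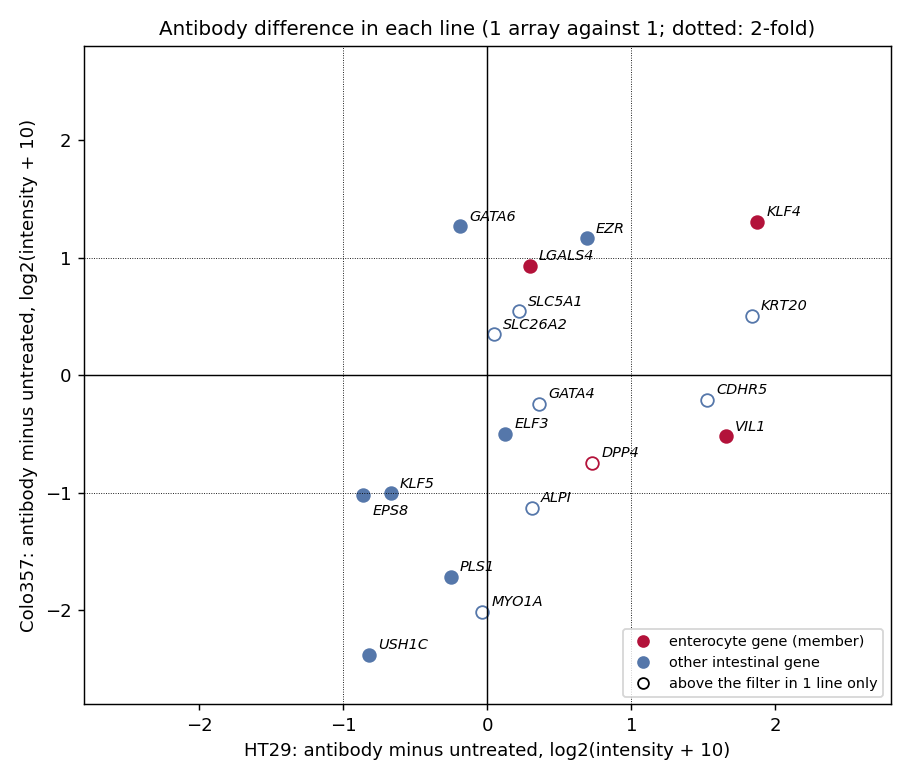
Antibody difference in HT29 (x axis) against that in Colo357 (y axis), each 1 array minus 1 array in log2(intensity + 10), for members (red) and other intestinal genes (blue) above the filter in at least 1 line; open points passed in 1 line, and dotted lines mark 2-fold. KLF4 lies past 2-fold on both axes at 1.87 and 1.31, and VIL1 at 1.66 and -0.52.

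A set of 46 other enterocyte and colonocyte genes, 42 of them with a value, was read for comparison. In HT29, 10 passed the filter, with a median of -0.03; KRT20 (1.84) and the microvillar protocadherin CDHR5 (1.53) were 2-fold or more higher and none lower. CDHR5, at 29.4 untreated, passed only through its treated array. Of all 6692 genes tested in HT29, 5.27% were higher and 7.58% lower by that size. In Colo357, 11 passed with a median of -1.005, against -0.04 for all genes tested. Of the 11, 2 were 2-fold or more higher and 6 lower, against 10.9% and 13.1% of all 6836 genes. The brush border enzyme gene ALPI, at 55.1 with antibody against a filter of 56.45, passed only through its untreated array and had to be lower. Of the 5 brush border structure genes there, 4 were lower, among them the harmonin gene USH1C (-2.38), the brush border myosin MYO1A (-2.01) and the actin bundler PLS1 (-1.72), while EZR, the membrane-actin linker ezrin, was 1.16 higher. Of the 3 goblet cell genes above the filter on the same arrays, SPDEF differed by -2.66, AGR2 by -2.61 and SPINK4 by 0.45. SPDEF, at 29.8 with antibody, passed only through its untreated array. Below the filter, MUC2 differed by 1.54, TFF3 by 1.25 and FCGBP by -0.04. The part of goblet cell genes in these values was not tested. Over both lines 0 of 9 were called by limma, beside 0.425% of all 6819 genes. USH1C was nearest with -1.60 ± 0.42 and a limma adjusted p of 0.0921. In Colo357 VIL1, at -0.52, thus lay on the side of 4 of the 5 brush border structure genes, with EZR on the other. In HT29, where VIL1 was higher, 2 of the 5 such genes above the filter were higher and 3 lower. The bacterial dap spike-in control read 595.9 and 922.9 on the antibody arrays and 277.1 and 274.8 on their untreated counterparts, and its part in these differences was not tested.

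Colo357 and HT29 differed in 2 of the 3 members that could be tested. The 2 arrays of each line were 1 untreated and 1 with antibody, not replicates, and the fit left 1 residual degree of freedom. LGALS4 was lower in Colo357, with a difference of -4.62 ± 0.34 (SE, 2 arrays per line), a 24.6-fold difference, with a limma adjusted p of 5.3e-05. KLF4 was higher in Colo357 by 2.07 ± 0.33, or 4.19-fold, with a limma adjusted p of 0.00318. VIL1, at 0.25 ± 0.50, gave a limma adjusted p of 0.777. Both arrays of Colo357 lay beyond both of HT29 for LGALS4 and KLF4, and the lines overlapped for VIL1. The share of all genes lying apart in this way is not given here, so this only describes the readings. Among all 6819 genes tested, 20% were called (804 higher and 562 lower in Colo357), so 2 of 3 members stand beside a high background.

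Members below the filter gave -1.85 for DPP4, which limma called when no filter was set (adjusted p = 0.0384), and -0.67 for FABP1, -0.21 for GPA33 and 0.56 for CDH17 between the lines. When the 4 clones were counted with HT29, LGALS4 differed by -1.42 (limma adjusted p = 0.709) and KLF4 by 1.13 (limma adjusted p = 0.384), and the clones lay on the Colo357 side of HT29 in both genes. Of 9 other intestinal genes tested, KRT20 fell by 6.74 and the transcription factor GATA6 fell by 1.61, with limma adjusted p of 2.16e-05 and 0.027. MYO1A rose by 2.16 (limma adjusted p = 0.0142), and 6 did not pass. KRT20 passed the filter of 55.175 only through HT29 and MYO1A only through Colo357, so both had to differ and their calls are a description. Of the 5 pancreatic duct markers, 3 or 4 were above the array median on every array, with a summed intensity of 15383.4 and 16037.2 in Colo357 and 5238 to 9916.6 on HT29-derived arrays. Between the lines KRT7 was higher in Colo357 by 6.62 and MUC1 by 3.90, SOX9 differed by -1.37 (limma adjusted p = 0.0272) and KRT19 by 0.46 (limma adjusted p = 0.426), and PDX1, at 0.07, was below the filter. The part of duct identity in the members' values was not tested.

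The clone comparison asked what shRNA against CD24 does relative to parental HT29 and the GFP clone, and in these genes those controls were far apart. With 1 array against 1, GFP clone minus parental HT29 was -2.95 for LGALS4, -1.96 for VIL1, 2.71 for DPP4 and 2.60 for KLF4. All 4 were 2-fold or more apart. KLF4 and DPP4 passed the filter of 56.7 only through the GFP clone, so they had to differ and their count supports nothing; of the 6716 genes tested, 15.2% were higher and 7.27% lower in the GFP clone. FABP1 (-0.84), CDH17 (-0.38), GPA33 (-0.11), CDX2 (0.07) and CDX1 (0.03) lay below the filter.

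Against both controls together, the 3 CD24 shRNA clones gave no call. LGALS4 had a log2 level of 6.95 ± 2.18 (SD, n = 3) in the clones and 10.69 ± 2.09 (n = 2) in the controls, a difference of -3.75 ± 1.26 (SE) with a limma adjusted p of 0.217. VIL1 was 6.13 ± 1.63 against 7.83 ± 1.39, a difference of -1.70 ± 0.95 (limma adjusted p = 0.332). KLF4 was 8.01 ± 0.32 against 7.05 ± 1.84 (limma adjusted p = 0.448), and DPP4 7.05 ± 0.19 against 6.85 ± 1.92 (limma adjusted p = 0.882).

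The wide SD of the controls in KLF4 and DPP4 is the gap between parental HT29 and the GFP clone. Exact two-sided permutation tests over the 10 splits of these 5 arrays, whose smallest possible p is 0.1, gave p = 0.3 for LGALS4 and for VIL1, 0.6 for KLF4 and 0.8 for DPP4; no outcome of that test could have passed 0.05. No member's clones lay wholly beyond both controls, while 40.3% of the 6760 genes did. In limma 0% of genes were called (0 of 6760), 1358 having an unadjusted p under 0.05. That count rested on single arrays: it was 615 of 6759 without the second 2-vector clone and 103 of 6777 without the GFP clone, with no member called in either. Without parental HT29, which leaves the GFP clone as the lone control, KLF4 turned to -0.35 and DPP4 to -1.15.

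Set against parental HT29 alone, the GFP clone and the 3 CD24 shRNA clones lay on the same side in all 4 members. In the order GFP, 1-vector, first and second 2-vector clone, LGALS4 differed from parental HT29 by -2.95, -2.73, -6.17 and -6.76. VIL1 differed by -1.96, -0.80, -3.57 and -3.68. KLF4 differed by 2.60, 1.88, 2.45 and 2.42, and DPP4 by 2.71, 1.77, 1.40 and 1.52. The clones share the 1 parental array, so these values are not independent of each other. KLF4 and DPP4 were at least 2-fold higher and LGALS4 at least 2-fold lower in each of the 4 clones, while VIL1 missed 2-fold in the 1-vector clone. For DPP4 this holds for its brightest probe set; the others gave 0.38 and 0.97 in the first 2-vector clone.

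Of all 6760 genes tested, 6.6% were 2-fold or more higher in each clone and 2.19% lower. KLF4 and DPP4 passed the filter of 49.9 only through the clones, so nothing is read from their count. All 4 members lay wholly beyond the parental array, as did 53.2% of genes. The limma fit of the 4 clones against parental HT29 gave KLF4 2.34 ± 0.46 (adjusted p = 0.121) and DPP4 1.85 ± 0.60 (adjusted p = 0.298). It gave LGALS4 -4.65 ± 1.64 (adjusted p = 0.331) and VIL1 -2.50 ± 1.12 (adjusted p = 0.452). None of the 4 was called, beside 0.251% of genes (17 of 6760); 103 of 6777 genes were called without the GFP clone and 0 without any 1 of the other clones. In the dimmest members, FABP1 differed by -0.77 to -0.91 in the 4 clones, all from readings of 11 or less, and CDX1, CDX2, GPA33 and CDH17 went both ways.

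**Figure D4:**
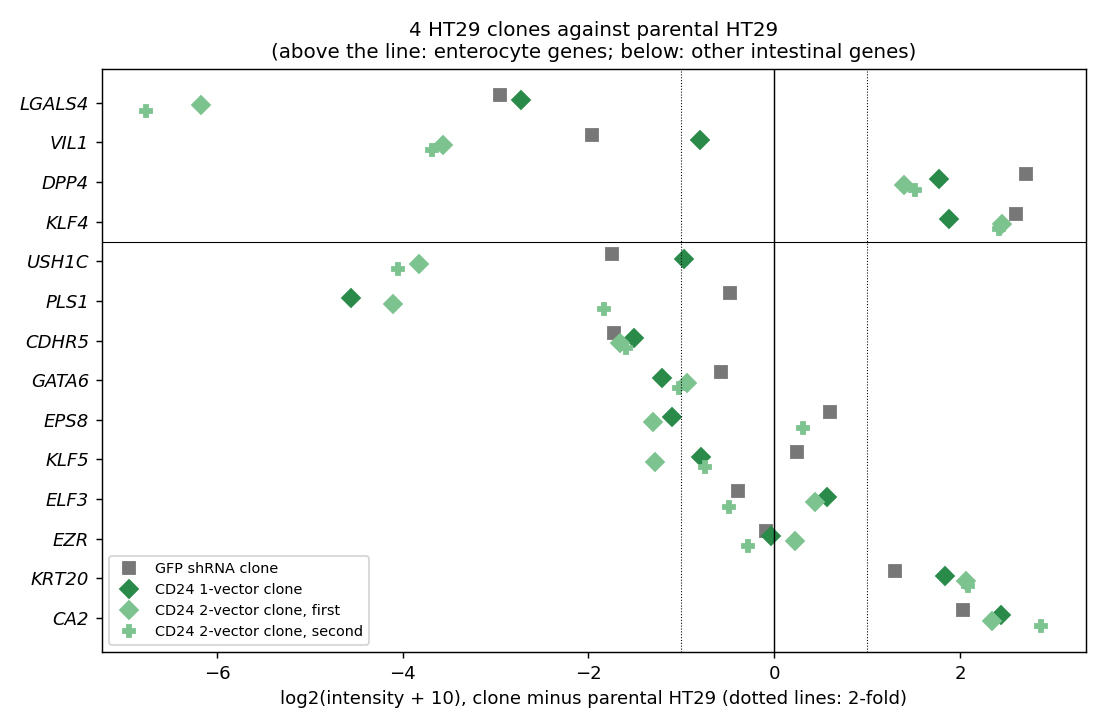
Each HT29 clone minus parental HT29 in log2(intensity + 10), 1 point per clone (grey square GFP shRNA, dark diamond 1 CD24 vector, light diamond and cross 2 CD24 vectors), for members above the line and other intestinal genes below it; dotted lines mark 2-fold. LGALS4 and VIL1 lie left of 0 in all 4 clones, furthest in the 2-vector clones (-6.76 and -3.68 in the second), and KLF4 and DPP4 lie right of 0 in all 4.

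LGALS4 and VIL1 were lower in both 2-vector clones than in the 1-vector clone, but vector number and clone cannot be told apart here, and the GFP clone, with no CD24 vector, read below the 1-vector clone in both genes. Relative to the 1-vector clone, LGALS4 differed by -3.44 and -4.03 in the first and second 2-vector clones, and VIL1 by -2.77 and -2.88. KLF4 differed by 0.57 and 0.54 and DPP4 by -0.37 and -0.25. Thus 2 of the 4 members were 2-fold or more lower in both 2-vector clones and none higher, where 2.03% of 6762 genes were lower and 1.88% higher. VIL1 was under the filter of 40.6 in both 2-vector clones and LGALS4 in the second, so VIL1 passed only through the 1-vector clone and nothing is read from the count. The single 1-vector clone leaves this without a test. The first 2-vector clone had an actin (ACTB) 3′ to 5′ signal ratio of 1.775, against 1.064 in the second and 1.058 to 1.171 over the other arrays, and the part of this in its values was not tested.

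The other intestinal genes gave no call in the clones either. Of 11 that passed the filter against both controls, 0 were called by limma, with a median of -0.78 against 0.04 for all genes. By size, KRT20 (1.35) and the carbonic anhydrase CA2 (1.54) were 2-fold or more higher. PLS1 (-3.25), USH1C (-2.07), the adhesion gene CEACAM7 (-1.36), the transcription factor KLF5 (-1.07) and the actin regulator EPS8 were 2-fold or more lower. EPS8 was at the edge of that size. It read 541, 465.5 and 1452.8 in the 1-vector, first and second 2-vector clones. Parental HT29 read 1170 and the GFP clone 1783.2, so the second 2-vector clone lay above parental HT29. Over all 6760 genes, 7.29% were higher and 17.8% lower by that size. CEACAM7 passed only through the GFP clone, at 188.2; parental HT29 read 21.3 and the CD24 shRNA clones 17 to 27.7. Without parental HT29 none of the 11 was 2-fold or more higher, and without the GFP clone or without the first 2-vector clone 3 were lower. Among the brush border structure genes 3 of 4 were lower to that degree, counting EPS8 at its edge.

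USH1C was closest to VIL1 in its clone values. It read 434.7 before cloning, 122.6 with the GFP shRNA, 217.5 with 1 CD24 vector, and 21.3 and 16.9 with 2 vectors. PLS1 did not share that order, reading 12.7 in the 1-vector clone against 21.3 and 140.6 in the 2-vector clones. KRT20 and CA2 were higher in all 4 clones: KRT20 read 1117.1 in parental HT29 and 2761.4 to 4799.8 in the clones, and CA2 read 13.9 and 87.7 to 164.7. CA2 passed the filter of 49.9 only through the clones, so it had to be higher and nothing is read from its direction. KRT20 and USH1C lay on opposite sides of parental HT29 within the same 4 clones. Over all 6760 genes, 53.2% lay wholly beyond the parental array in either direction.

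Markers of the goblet cell, the mucus-secreting neighbour of the enterocyte, were read beside these values. Of its 6 markers, 4 were above the array median in parental HT29, with a summed intensity of 1733.7. The GFP clone had 2 above it (2537.1), the 1-vector clone 3 (1821.5), and each 2-vector clone 2 (1088.4 and 1868.9). SPDEF and AGR2 were above it on all 5 of these arrays and MUC2 on none. SPINK4, counted in parental HT29, read 44.2 there against a median of 44. The medians ran from 32.4 to 63.1 over these arrays. The dap control read 916.9, 667.5 and 405.5 for the CD24 shRNA clones, 275.2 for the GFP clone and 277.1 for parental HT29. The part of either in the members' values was not tested.

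The genes with the pattern most like that of CDX2, by Pearson correlation of log2(intensity + 10) over the 8 arrays among 6822 genes, were ELP3 (0.984), P2RX5 (0.972), FAM50B (0.97), PTGES (0.968) and MR1 (0.965). The points share the parental and clonal origin of 6 arrays, and CDX2 is below the array median on all 8, so these values describe the arrays only. The same measure was taken for the brighter members after their values had been seen. It placed CORO2A (0.971) and PLTP (0.956) nearest VIL1, and EHBP1L1 (0.967) and CALML4 (0.955) nearest LGALS4. TIMP2 (0.969) and HOMER3 (0.952) were nearest KLF4, and CZIB (0.983) and BPHL (0.967) nearest DPP4. Among these 4 members the pairs ran from -0.663 (VIL1 and DPP4) to 0.633 (VIL1 and LGALS4); pairs with a dim member reached -0.865 (KLF4 and FABP1) and 0.831 (LGALS4 and FABP1).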

How the data were processed

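The deposited value table held one intensity for each of 22277 probe sets on each of 8 arrays. The authors computed these intensities with MAS5, per the submitters' processing notes (version not given in the sources used here), and the mean intensity of each array after trimming 2% from each end was 250.1. The labels name the HG-U133A array, and no detection calls came with the table.

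Probe sets were named from the platform annotation, with symbols updated through the Entrez ID in a RefSeq table (GRCh38.p14). Of all probe sets, 19064 had 1 symbol, 1043 several and 2108 none, and 62 were controls. HNF4A was not analysed here. A gene was represented by its brightest probe set on average across all arrays. Values were taken as log2(intensity + 10). A gene was tested in a comparison when its mean intensity over the arrays compared was above the median of all probe sets other than controls. Fits used limma 3.58.1 in R 4.3.3 over all such genes (lmFit and eBayes) with Benjamini-Hochberg adjustment at 0.05, and were tested on simulated data. Comparisons of 1 array with 1 have no test, and a 2-fold difference is called there. The interaction fit used all 8 arrays and 7 groups.

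Members, all with every probe set, and the lists of other genes were chosen with earlier results of these data known. From the other intestinal lists, genes were named by the size of their difference, at most 4 per list and comparison. Alternatives were quantile normalization, pseudocounts of 1 and 50, no filter, the mean of a gene's probe sets, other sets of arrays and leaving out each array where the fit allowed it.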

Additional observations from a re-analysis of the deposited data

Results flagged for a closer look

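VIL1 moved in opposite directions with antibody in HT29 and Colo357: it was 1.66 higher in HT29 and differed by -0.52 in Colo357, on the log2(intensity + 10) scale with 1 array against 1 in each line. The difference between them was 2.18, and the limma interaction test over all genes gave an adjusted p of 0.999926. The same difference was between 2.18 and 2.2 under the 5 alternatives tried, with adjusted p from 0.999843 to 0.999974.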

How the results depend on the processing

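Of 240 values of single members recomputed under alternatives, 210 were counted as unchanged. In tested comparisons these kept their direction and side of the threshold. For 1 array against 1 they moved by less than the SD of that gene over the 2-vector clones. That SD is not an error of these values, and the count ignores the 2-fold line. LGALS4 with antibody in Colo357 went from 0.93 to 1.02 with quantile normalization and was counted as unchanged. Of the rest, 24 values of 1 array against 1 moved by more than that SD, 2 passed the threshold, 2 no longer passed it and 2 reversed. With antibody in Colo357, 1 member was 2-fold or more apart, against 2 with quantile normalization, 3 without the filter and 0 with the mean of a gene's probe sets, where KLF4 was 0.95. Over both lines no member was called, against 1 (KLF4) with a pseudocount of 50 and 1 (KLF4) with a filter on the mean log2 value; the latter was chosen after seeing the data and raised the genes called from 29 to 241. Over all alternatives KLF4's limma adjusted p there ran from 0.0373 to 0.319. Between Colo357 and HT29, 2 members were called, against 1 with the 4 clones added to HT29, where DPP4, otherwise below the filter, was -2.84 ± 0.62 (limma adjusted p = 0.0214) and the other 2 did not pass. In the CD24 shRNA clones against both controls, leaving out 1 array at a time gave KLF4 -0.35 to 2.25, DPP4 -1.15 to 1.56, LGALS4 -5.22 to -2.27 and VIL1 -2.68 to -0.72; the values of KLF4 and DPP4 below 0 are those without parental HT29. Without the second 2-vector clone, 1 of 11 other intestinal genes was called lower, beside 615 of all 6759 genes. The antibody and line fits leave no residual degrees of freedom when 1 array is left out, and were not repeated that way. No paired analysis was possible because the labels give no replicate numbers that tie samples together, beyond the cell line itself, which is a term in the fit over both lines. The number of arrays limits the precision throughout.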
